A study of Mus musculus with 6 samples.

Results

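In mouse hearts of 3 groups measured on 6 Affymetrix arrays, 54 probe sets of 46 genes were brighter on both untreated apoE-deficient arrays than on every array of the other groups, and the heat shock proteins led them. The probe sets were chosen by these measured values. The signals of the 6 arrays were first given a common distribution (quantile normalization). A probe set then entered if it had 1 gene symbol, if its mean signal was at least 100, and if the lower untreated apoE-deficient array was at least 1.5 times the higher rosiglitazone array and at least 1.5 times the higher B6 array. Of 45037 probe sets that are not controls, 34945 have 1 gene symbol, 14033 of these reached the signal minimum, and 54 met the whole rule. They belong to 46 of the 18193 genes with such a probe set.

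The treated group was apoE-deficient mice given rosiglitazone, 30 mg/kg per day for 2 months from the age of 6 months, whose hearts the labels call failing. The second group was apoE-deficient mice with no treatment, and the third was untreated wild-type B6 mice. The apoE-deficient mice were on a B6 background as well, all mice were 8 months old, and all ate chow of 7% fat and 0.15% cholesterol. ApoE sits on lipoprotein particles and lets cells take them up from blood. Rosiglitazone lowers blood glucose by activating PPAR gamma, a nuclear receptor of fat cells. Each group had 2 arrays, and the labels do not say that these came from separate animals, so the spread between arrays may be technical. Drug and failing heart come together in the labels and cannot be told apart, nor can apoE deficiency be told apart from anything else that the untreated apoE-deficient hearts alone shared.

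Heat shock proteins are chaperones that bind unfolded or newly made proteins and help them fold. The HSP70 proteins do this with J-domain partners that deliver clients and with HSP110 partners that exchange nucleotide, while HSP90 acts later on kinases and steroid receptors and small heat shock proteins hold clients from aggregating. The transcription factor HSF1 induces the stress-inducible members through heat shock elements, inverted repeats of the unit nGAAn before the gene. In heart muscle these proteins are known to be raised by heat, ischaemia and protein damage.

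Across probe sets the array pair of treated hearts correlated at r = 0.987, that of untreated apoE-deficient hearts at 0.968 and that of B6 hearts at 0.977. Before normalization the arrays differed in brightness, with trimmed means of 341 and 263 on treated, 126 and 130 on untreated apoE-deficient and 175 and 149 on B6 arrays, so brightness moved with group. Apoe itself was at 62.2 and 65.2 on treated, 26.6 and 67.4 on untreated apoE-deficient and 3834 and 3698 on B6 arrays, with both apoE-deficient groups far below B6. Ratios of 3' to 5' control probe sets, a measure of RNA integrity, ran from 0.853 to 0.923 for Gapdh and from 1.28 to 1.34 for Actb over all arrays. Cardiomyocyte markers were bright throughout, with signals of the 12 genes summing to 170311 to 176525 on treated, 181296 to 183260 on untreated apoE-deficient and 186297 to 186795 on B6 arrays. In bulk tissue, fewer cells of a type and less RNA per cell cannot be told apart. The treated arrays stood apart in markers of other tissues: airway and lung markers were higher than on untreated apoE-deficient arrays in 6 of 9 tested genes, and the listed genes summed to 15925 to 16868 on treated, 237 to 264 on untreated apoE-deficient and 181 to 253 on B6 arrays. White adipocyte markers were higher in 9 of 12 genes, and atrial markers, which are of the heart itself, in 9 of 12. Over all 13236 tested genes 11.4% were higher in that comparison. Atrial markers set the untreated apoE-deficient arrays apart as well. Against B6 hearts 7 of the 12 were lower there and 0 were higher, where 4.66% of all genes were lower and 3.85% higher. Sums for white adipocyte markers were 34197 to 34703 on treated, 13788 to 13885 on untreated apoE-deficient and 14258 to 14989 on B6 arrays, and those for atrial markers 50459 to 50721 on treated, 23358 to 23426 on untreated apoE-deficient and 37768 to 38055 on B6 arrays. Bpifa1, a secreted airway protein, had 7109 and 7212 on treated, 12.5 and 2.36 on untreated apoE-deficient and 6.57 and 9.02 on B6 arrays, near 0 outside the treated group. The part of these tissues in the values given here was not tested.

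The 54 probe sets differed most in how far the untreated apoE-deficient arrays lay above the rest. The ratio of the lower untreated apoE-deficient array to the highest of the other 4 arrays ran from 1.501 to 9.74, and 13 probe sets of 10 genes had a ratio of 2 or more. Their median log2 difference was -1.05 for treated minus untreated apoE-deficient hearts and 0.97 for untreated apoE-deficient minus B6 hearts, against -0.016 and -0.0064 over all 27022 probe sets bright enough to test. The rule fixed these directions, so they are a description and carry no test. The order also rests on scaling: with the signals as deposited, untreated apoE-deficient arrays stayed above B6 in all 54 but above the treated arrays in 10, of Hspa1b, Hspa1a, Fen1, Nr4a3, Hsph1, Dnaja1, Hspb1 and Cacng7. The untreated apoE-deficient arrays were the dimmest before scaling. In 5 of the 54 probe sets the mean signal was under 100 in both the treated and the B6 group, and all 54 passed the filter on dim probe sets. The map of the 54 probe sets by array shows the untreated apoE-deficient pair apart from the other 4 arrays in every line.

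**Figure D1:**
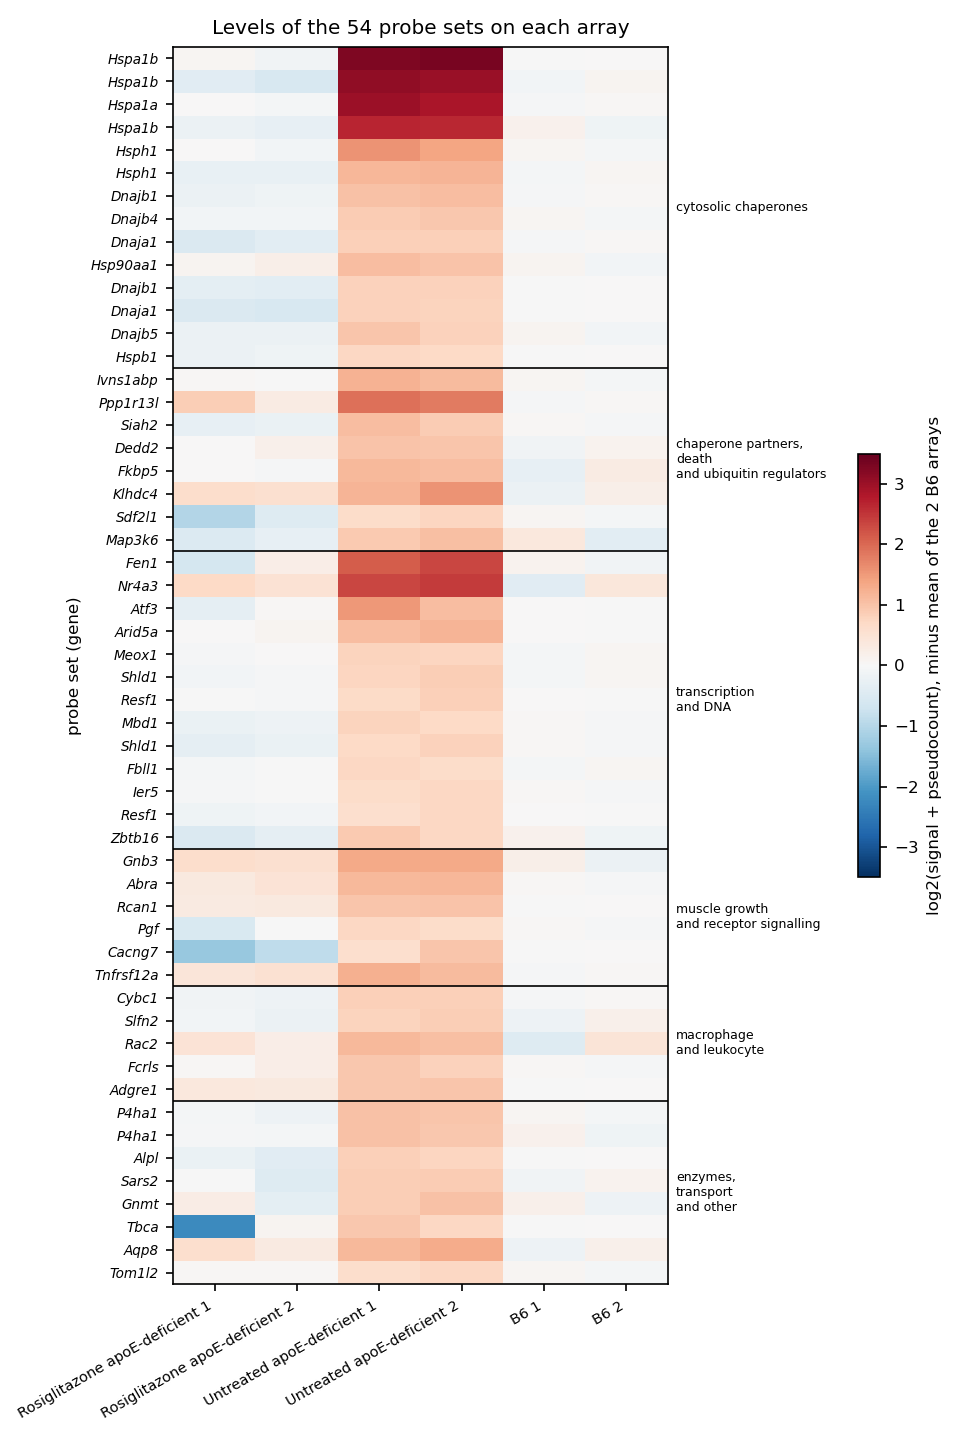
Level of each of the 54 probe sets (lines, grouped by what their genes do) on each of the 6 arrays (columns), as log2 of the signal plus a pseudocount of 11.1, minus the mean of the 2 B6 arrays. Red is above and blue below B6. The 3 Hspa1b lines and the Hspa1a line are the darkest. Among the bluest cells are 1 treated array of Tbca, both treated arrays of Cacng7 and the first treated array of Sdf2l1.

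The rule set no order between treated and B6 hearts, and that comparison could be tested. Of the 54 probe sets, 4 probe sets, of 4 genes, were higher in treated than in B6 hearts and 9, of 8 genes, were lower at a limma adjusted p under 0.05, while 41 did not pass. Higher calls numbered 2 without either treated array or either B6 array, and lower calls numbered 5 without the second B6 array. Among all 27022 tested probe sets 7.46% were higher and 7.58% were lower. That background holds probe sets dimmer than the rule admits. Some members reached the signal minimum only through the untreated apoE-deficient arrays. With the filter at the 60th percentile 2085 of 18015 probe sets were higher and 2320 lower, and 4 and 11 of the members. No excess of member calls can be read from these shares. The genes higher in treated hearts were Tnfrsf12a, Abra, Adgre1 and Rcan1, and those lower were Cacng7, Sdf2l1, Dnaja1, Hspa1b, Dnajb1, Shld1, Hsph1 and Hspb1. The median treated minus B6 difference of the 54 was -0.085, against -0.023 over all tested probe sets, with 38 negative and 16 positive. With 2 arrays a group a missed threshold does not show that treated and B6 levels were alike, and 22 of the 54 had an unadjusted p under 0.05. The calls depend on how arrays are scaled: of the member calls 30.8% were higher here and 90.5% with scaling to hybridization spike-ins (19 higher, 2 lower), against 49.6% and 92.5% of the calls over all probe sets. That scaling moved the median of all treated minus B6 differences to 0.28. Without the limma intensity trend no member passed, and 626 probe sets passed in all.

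**Figure D2:**
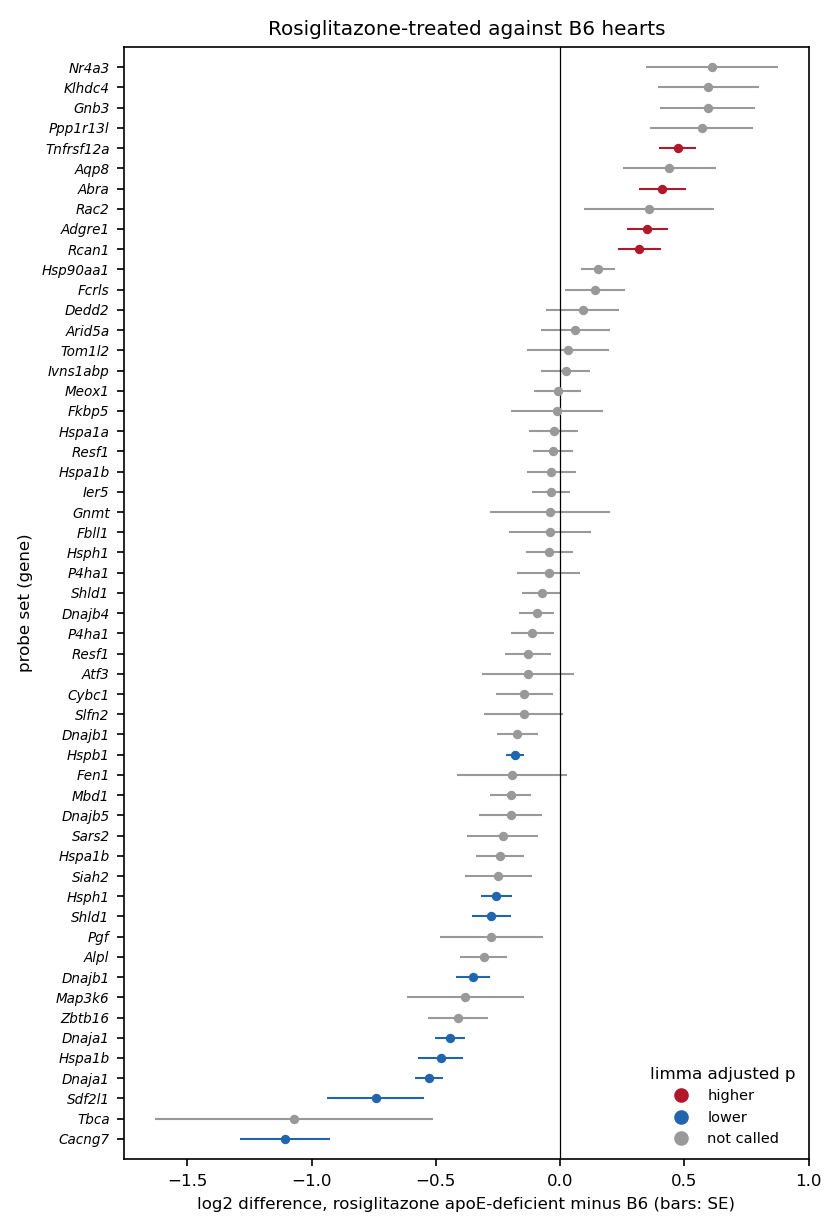
Log2 difference between treated apoE-deficient and B6 hearts for each of the 54 probe sets, with bars for the standard error of the limma fit (2 arrays a group). Red marks the 4 probe sets called higher, blue the 9 called lower, 8 of which turn sign with no scaling, and grey the 41 not called. Cacng7, at -1.11, lies lowest, and Nr4a3, at 0.61, lies highest without being called.

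The cytosolic chaperones gave 14 of the 54 probe sets, from 9 genes, and held the highest ratios. Hspa1b and Hspa1a encode the stress-inducible HSP70 proteins. The first Hspa1b probe set (1427126_at) had signals of 178 and 154 on treated, 1738 and 1809 on untreated apoE-deficient and 168 and 173 on B6 arrays. A second one (1427127_x_at) had 233 and 207 on treated, 2753 and 2585 on untreated apoE-deficient and 293 and 329.7 on B6 arrays, and the third (1452318_a_at) had 309 and 296 on treated, 2325 and 2294 on untreated apoE-deficient and 399 and 325 on B6 arrays. Hspa1a was at 172 and 163 on treated, 1449.5 and 1316 on untreated apoE-deficient and 165 and 177 on B6 arrays. On all 4 probe sets the untreated apoE-deficient pair lay far above the rest, an order that the rule fixed. The log2 differences were -3.54 to -2.89 for treated minus untreated apoE-deficient hearts and 2.64 to 3.30 for untreated apoE-deficient minus B6 hearts. Both genes are near-identical copies, and 1 probe set can read both, so which of them carried the signal cannot be told apart. Treated and B6 hearts were not called apart on 3 of the 4: the treated minus B6 difference was -0.036 ± 0.099 (limma adjusted p = 0.871) and -0.24 ± 0.098 (limma adjusted p = 0.146) for Hspa1b and -0.025 ± 0.099 (limma adjusted p = 0.915) for Hspa1a. On 1427127_x_at treated hearts were lower than B6 hearts, at -0.48 ± 0.092 (limma adjusted p = 0.00787). Here and below such differences are log2 values with their standard error, from 2 arrays a group.

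The 250 bases before the transcription start are shown for 5 chaperone genes, picked because their window held a heat shock element. They include the chaperone genes of highest ratio, Hspa1b, Hspa1a and Hsph1, but not Dnajb1, which came next with a ratio of 2.04 and had no element in its windows. Dnajb4 also held one and is not shown. The sequences are those of RefSeq on GRCm38.p6, written 5' to 3' on the strand of the gene up to the base before the start, with each element of 2 inverted units (GAANNTTC or TTCNNGAA, both searched, which covers both strands) in capitals. Hspa1a lies at chr17:34972157-34972406 on the minus strand, Hspa1b at chr17:34959239-34959488 on the minus strand, Hsph1 at chr5:149636316-149636565 on the minus strand, Hspb1 at chr5:135887669-135887918 on the plus strand and Dnaja1 at chr4:40722218-40722467 on the plus strand. For Dnaja1 the start was picked because its window held the element, which the windows of its other 2 starts did not, and for Hsph1 1 of 2 starts is shown.
Hspa1a: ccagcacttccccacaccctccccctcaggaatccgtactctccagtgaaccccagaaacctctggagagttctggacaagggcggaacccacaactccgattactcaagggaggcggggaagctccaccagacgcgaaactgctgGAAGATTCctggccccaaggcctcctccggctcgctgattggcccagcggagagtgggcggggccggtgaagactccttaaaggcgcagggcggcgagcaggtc
Hspa1b: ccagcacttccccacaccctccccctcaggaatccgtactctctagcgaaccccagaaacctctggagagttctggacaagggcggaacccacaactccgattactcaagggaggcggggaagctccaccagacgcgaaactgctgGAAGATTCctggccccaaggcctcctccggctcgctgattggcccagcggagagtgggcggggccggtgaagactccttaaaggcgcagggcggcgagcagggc
Hsph1: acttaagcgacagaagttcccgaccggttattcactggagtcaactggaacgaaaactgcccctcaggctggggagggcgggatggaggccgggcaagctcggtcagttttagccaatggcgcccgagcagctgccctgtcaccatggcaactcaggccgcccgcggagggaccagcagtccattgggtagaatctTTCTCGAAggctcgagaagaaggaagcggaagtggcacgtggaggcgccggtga
Hspb1: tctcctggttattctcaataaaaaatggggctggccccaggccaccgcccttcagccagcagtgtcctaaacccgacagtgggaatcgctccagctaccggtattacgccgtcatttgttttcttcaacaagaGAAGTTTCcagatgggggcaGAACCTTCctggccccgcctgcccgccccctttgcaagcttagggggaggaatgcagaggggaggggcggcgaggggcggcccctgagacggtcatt
Dnaja1: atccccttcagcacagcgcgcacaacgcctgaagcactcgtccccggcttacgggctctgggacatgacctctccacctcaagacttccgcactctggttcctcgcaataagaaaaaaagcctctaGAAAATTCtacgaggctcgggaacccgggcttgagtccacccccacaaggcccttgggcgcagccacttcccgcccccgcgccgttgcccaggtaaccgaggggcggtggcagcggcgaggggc

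The windows of Hspa1a and Hspa1b were identical at 247 of 250 bases, and each held the element 104 to 97 bases before the start. In Hsph1 it lay 54 to 47 bases before the start shown and 33 to 26 before a second start. In Dnaja1 it lay 124 to 117, and in Hspb1 both 117 to 110 and 97 to 90 bases before the start. A window was at hand for 37 of the 46 genes, 52 windows in all since some genes have several starts. The element of 2 units was in 9 of these 52 windows (17.3%), against 4218 of 32851 windows of all genes (12.8%). Its 8 genes were the 5 above, Dnajb4 (14 to 7 bases before the start), Map3k6 and Rcan1. By role, it was in at least 1 window of 6 of 8 heat shock genes and of 2 of 29 others, against 14.5% of all genes with a window. Counted by window, it was in 7 of the 15 windows of those 8 heat shock genes. The longer element of 3 units (GAANNTTCNNGAA or TTCNNGAANNTTC) was in none of the 52 windows and in 153 of all 32851 (0.47%). A match describes the letters of the window and is no evidence of binding.

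The partners of HSP70 showed the same order with smaller ratios. Hsph1, the HSP110 protein that recharges HSP70, had 385 and 357 on treated, 1158 and 1022 on untreated apoE-deficient and 404 and 362 on B6 arrays on its first probe set (1423566_a_at). The second Hsph1 probe set (1425993_a_at) had 708 and 705 on treated, 1899 and 1934 on untreated apoE-deficient and 812 and 882 on B6 arrays. Treated and B6 arrays overlapped on the first, and on the second the treated pair was lower than B6, at -0.26 ± 0.063 (limma adjusted p = 0.024). Dnaja1, a J-domain partner of HSP70, was at 1230.2 and 1359 on treated, 3172 and 3175 on untreated apoE-deficient and 1710.1 and 1819.6 on B6 arrays on 1416288_at and at 778 and 753 on treated, 1929.6 and 1897 on untreated apoE-deficient and 1095 and 1123 on B6 arrays on 1460179_at. In both, the treated pair lay below B6 with no overlap, at -0.45 ± 0.06 (limma adjusted p = 0.0013) and -0.53 ± 0.056 (limma adjusted p = 0.00035) for treated minus B6. Dnajb1, the HSP40 protein induced with HSP70, had 455 and 449.6 on treated, 1014 and 1030.1 on untreated apoE-deficient and 571 and 589 on B6 arrays on 1416755_at. Its other probe set, 1416756_at, had 318 and 333 on treated, 768 and 794 on untreated apoE-deficient and 359.7 and 377 on B6 arrays. Dnajb1 was lower in treated than in B6 hearts on the first, at -0.35 ± 0.069 (limma adjusted p = 0.0087), and on the second the difference was -0.17 ± 0.082 (limma adjusted p = 0.22). The remaining J-domain genes, Dnajb4 and Dnajb5, did not pass: Dnajb4 had 725 and 726 on treated, 1437 and 1502 on untreated apoE-deficient and 817 and 737 on B6 arrays, a treated minus B6 difference of -0.095 ± 0.069. Dnajb5 had 159.8 and 160.3 on treated, 377 and 334 on untreated apoE-deficient and 199 and 172 on B6 arrays, a difference of -0.20 ± 0.13.

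Hsp90aa1, the inducible HSP90, had 1677 and 1807 on treated, 3322 and 3149 on untreated apoE-deficient and 1666 and 1472 on B6 arrays, and treated and B6 hearts did not differ past the threshold, at 0.15 ± 0.069 (limma adjusted p = 0.197). Hspb1, a small heat shock protein abundant in heart muscle, had 5340.0 and 5559 on treated, 10216 and 10037 on untreated apoE-deficient and 6139.6 and 6226 on B6 arrays. The treated arrays were lower than the B6 arrays, at -0.18 ± 0.036 (limma adjusted p = 0.00895), the smallest difference among the 13 called. Over the 14 chaperone probe sets 6, of 5 genes, were lower in treated than in B6 hearts, 8 were not called, and 13 of the 14 differences were negative (median -0.19). Of all tested probe sets 7.58% were lower and 7.46% higher, with a median of -0.023. Several of the 14 read the same gene, so they are not independent values. All 6 calls were lost or turned with some scaling: with the arrays as deposited, without scaling, the sign of each turned, and with spike-in scaling Dnaja1 on 1460179_at kept its call. Without the second B6 array the calls of Hspa1b, Dnajb1, Hspb1 and Hsph1 were lost, with limma adjusted p from 0.0595 to 0.151, and those of Dnaja1 held. The Hsph1 call was also lost without either treated array (limma adjusted p = 0.0882 and 0.0773). Other probe sets of these genes, not members, did not all lie alike. Hsp90aa1 was higher in treated than in B6 hearts on its 2 other bright probe sets, at 0.31 ± 0.062 (limma adjusted p = 0.00937) and 0.78 ± 0.054 (limma adjusted p = 2.97e-05). Dnajb5 was lower on 1421962_at, at -0.68 ± 0.076 (limma adjusted p = 0.000493). Dnajb4 was lower on 1451177_at, at -0.17 ± 0.04 (limma adjusted p = 0.0226), and Hspb1 on 1422943_a_at, at -0.26 ± 0.044 (limma adjusted p = 0.00489). Dnaja1 was not called on 1459835_s_at, where treated and B6 arrays overlapped, at 0.088 ± 0.10 (limma adjusted p = 0.662). Dnajb5 was not called on 1450436_s_at, at -0.17 ± 0.13 (limma adjusted p = 0.473), and had a ratio of 0.811 there. The plot of chaperone signals by array gives 1 probe set a gene.

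**Figure D3:**
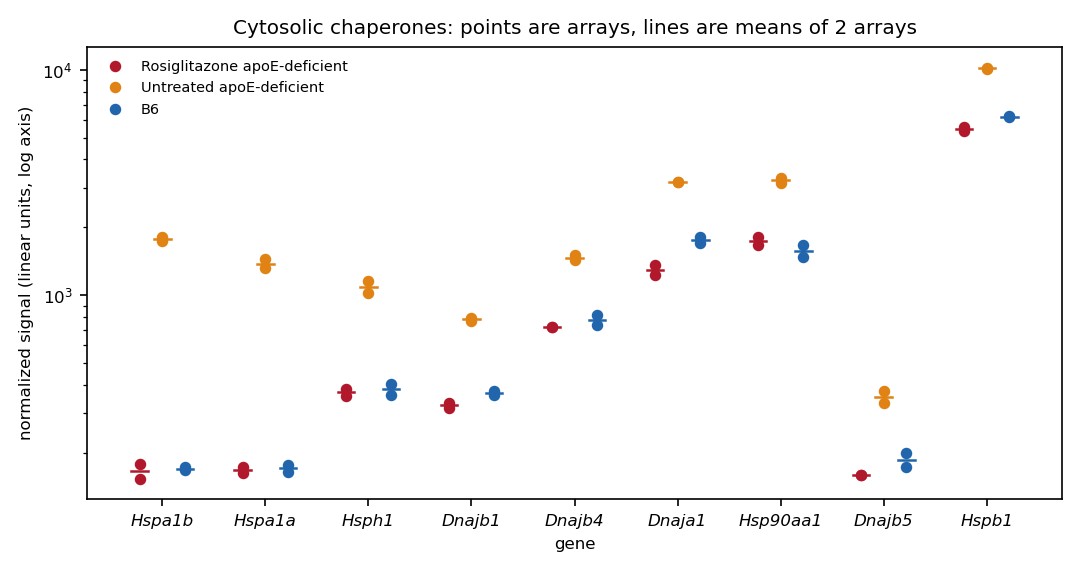
Normalized signal (linear units on a log axis) of the 9 cytosolic chaperone genes, 1 probe set each, the 1 with the highest ratio. Points are arrays and short lines group means of 2 arrays, in the order treated, untreated apoE-deficient, B6 for each gene. The untreated apoE-deficient points lie above the others for every gene, as the rule requires. For Dnaja1, Dnajb1, Dnajb4, Dnajb5 and Hspb1 the treated points lie below those of B6. With no scaling the treated minus B6 difference of each of these genes turns positive.

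The other genes of a list of 30 heat shock proteins were read with 1 probe set a gene, the brightest. Of 28 tested genes 9 belong to the 46, and these were chosen by 2 of the comparisons below. Of the other 19, 12 fell and 1 rose in treated against untreated apoE-deficient hearts (median -0.37), where 12.3% of all 13236 tested genes fell and 11.4% rose. In untreated apoE-deficient against B6 hearts 11 of the 19 rose and 0 fell (median 0.24), where 3.85% of all genes rose and 4.66% fell. Treated against B6, 3 rose and 8 fell (median -0.17), where 8.78% of all genes rose and 9.87% fell. Bag3, a partner that links HSP70 to small heat shock proteins and autophagy, had 2586 and 2731 on treated, 4099.9 and 4044 on untreated apoE-deficient and 3114 and 3202 on B6 arrays, a treated minus untreated difference of -0.61 ± 0.045 (limma adjusted p = 3.43e-05) and an untreated minus B6 difference of 0.37 ± 0.045 (limma adjusted p = 0.0024). Hspe1, the mitochondrial HSP10, had 3132 and 3199 on treated, 4600.4 and 4600.4 on untreated apoE-deficient and 3711 and 3717 on B6 arrays, with differences of -0.54 ± 0.038 (limma adjusted p = 2.99e-05) and 0.31 ± 0.038 (limma adjusted p = 0.00257). Stip1, which hands clients from HSP70 to HSP90, had 700.4 and 778 on treated, 1322 and 1263 on untreated apoE-deficient and 946 and 945 on B6 arrays, with -0.80 ± 0.069 (limma adjusted p = 9.37e-05) and 0.45 ± 0.069 (limma adjusted p = 0.00742). For Hspb8, the small heat shock protein that works with Bag3, the values were 4229 and 4117 on treated, 5783 and 5747 on untreated apoE-deficient and 4562 and 4869.7 on B6 arrays, with -0.47 ± 0.043 (limma adjusted p = 0.000128) and 0.29 ± 0.043 (limma adjusted p = 0.00571). In each of these 4 genes the untreated apoE-deficient arrays were the highest pair and the treated arrays the lowest. Hspb6, picked here because it was the 1 gene that rose in treated hearts, had 12502 and 12654 on treated, 10616 and 11034 on untreated apoE-deficient and 9751 and 9778 on B6 arrays, with 0.22 ± 0.032 (limma adjusted p = 0.00163). Cryab, the alpha B crystallin of heart muscle and chosen here after its values were seen, had 13648 and 13139.8 on treated, 13316 and 13692 on untreated apoE-deficient and 13111 and 12736 on B6 arrays and passed in neither comparison. Summed over the 28 genes the list had signals of 93037 to 93336 on treated, 115449 to 115766 on untreated apoE-deficient and 90489 to 92170 on B6 arrays. This sum holds the 9 member genes, so the rule fixed part of its order, and it says nothing of the other 19 alone. With the arrays unscaled 0 of the 19 fell in treated hearts and 0 rose in untreated apoE-deficient hearts. In untreated apoE-deficient against B6 hearts 5 of the 19 rose without the first untreated apoE-deficient array or either B6 array, and 6 without the second untreated apoE-deficient array.

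**Figure D4:**
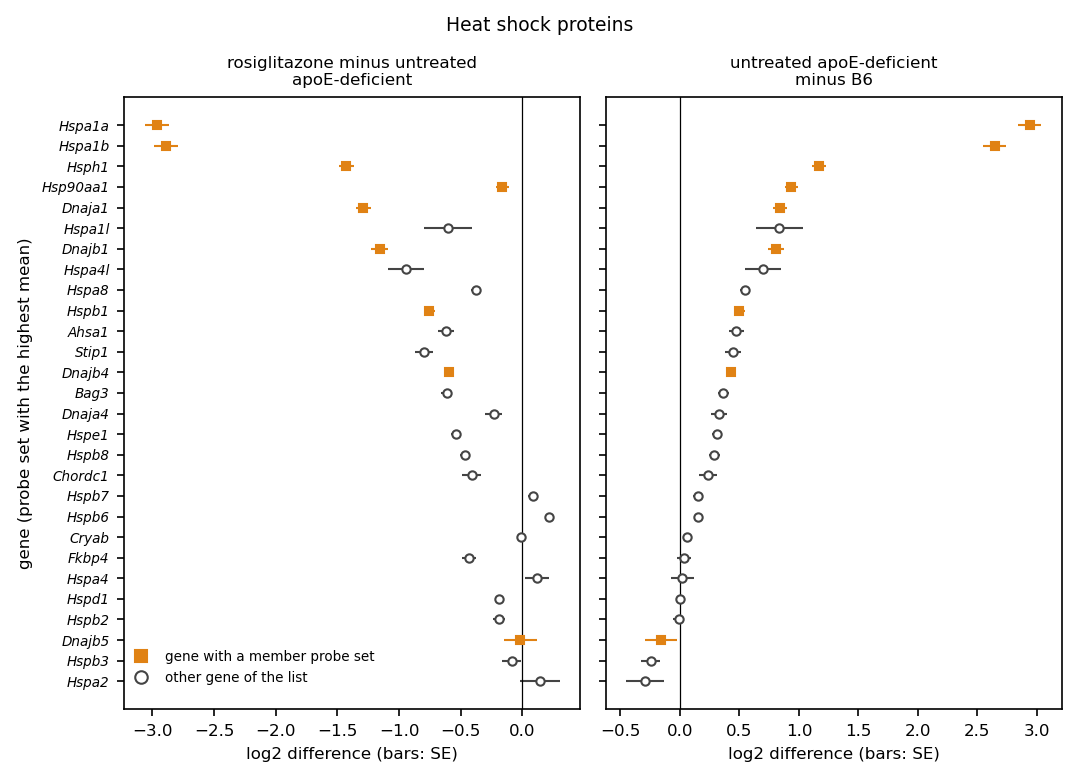
Log2 differences of the 28 tested genes of the heat shock list, treated minus untreated apoE-deficient on the left and untreated apoE-deficient minus B6 on the right, with bars for the standard error. Squares are genes with a member probe set, circles the other 19 genes, each by its brightest probe set, which for Hsp90aa1, Dnajb4, Dnajb5 and Hspb1 is not the member probe set. Hspa1a and Hspa1b stand far out on both sides.

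A further 8 genes act with chaperones, in cell death or in ubiquitin signalling. Fkbp5, a partner of HSP90 at the glucocorticoid receptor, had 145 and 139.5 on treated, 329.7 and 314 on untreated apoE-deficient and 115 and 178 on B6 arrays. Its second probe set (1416125_at) had the same order with a ratio of 1.38, below the rule. Sdf2l1, a protein of chaperone complexes in the endoplasmic reticulum, had 66.9 and 105 on treated, 235 and 254 on untreated apoE-deficient and 155 and 141 on B6 arrays and was lower in treated than in B6 hearts, at -0.74 ± 0.20 (limma adjusted p = 0.0339). That call was lost without the first treated, the second untreated apoE-deficient or either B6 array, with limma adjusted p from 0.0505 to 0.209. Siah2, a ubiquitin ligase, had 115 and 120.4 on treated, 313 and 275 on untreated apoE-deficient and 146 and 138 on B6 arrays. Dedd2, a protein with a death effector domain, had 121 and 137 on treated, 252 and 247 on untreated apoE-deficient and 111 and 132 on B6 arrays. On these 4 genes the untreated apoE-deficient pair was highest, as the rule requires, and Sdf2l1 alone among all 8 was called between treated and B6 hearts.

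Ppp1r13l, the inhibitor of p53 known as iASPP, had 126 and 80.4 on treated, 275 and 255 on untreated apoE-deficient and 61.9 and 67.1 on B6 arrays. Its 3 other bright probe sets did not follow, with ratios of 0.78 to 0.92, so the pattern rests on 1 probe set. Ivns1abp, a kelch-domain protein, had 292 and 283 on treated, 674 and 623 on untreated apoE-deficient and 299.9 and 267 on B6 arrays, and its 2 other probe sets had ratios of 0.94 and 0.807. Map3k6, a kinase at the head of stress-activated kinase cascades, had 76.0 and 88.5 on treated, 219 and 242 on untreated apoE-deficient and 146 and 82.7 on B6 arrays, with the B6 arrays far apart. Klhdc4, another kelch-domain protein, had 116 and 112 on treated, 177 and 235 on untreated apoE-deficient and 60.7 and 84.4 on B6 arrays and a treated minus B6 difference of 0.60 ± 0.20 (limma adjusted p = 0.0885). The other Klhdc4 probe set had 116 and 125 on treated, 183 and 212 on untreated apoE-deficient and 128 and 109.9 on B6 arrays, the same order with a ratio of 1.43.

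Lists of nearby pathways were read in the same way. Of 26 endoplasmic reticulum chaperone and unfolded protein response genes other than Sdf2l1, 12 fell and 1 rose in treated against untreated apoE-deficient hearts, 5 rose and 1 fell in untreated apoE-deficient against B6 hearts, and 0 rose and 8 fell in treated against B6 hearts. The shares of all 13236 tested genes were 11.4% risen and 12.3% fallen, 3.85% and 4.66%, and 8.78% and 9.87%, in that order of comparisons. Manf, a secreted protein induced by stress of that compartment, had 596 and 593 on treated, 1503 and 1447 on untreated apoE-deficient and 988 and 883 on B6 arrays. It fell in treated against untreated apoE-deficient hearts, at -1.29 ± 0.071 (limma adjusted p = 6.93e-06) and rose in untreated apoE-deficient against B6 hearts, at 0.65 ± 0.071 (limma adjusted p = 0.00141). Hspa5, the HSP70 chaperone of that compartment (BiP), had 3103 and 3129 on treated, 5102 and 4853 on untreated apoE-deficient and 4716 and 4678 on B6 arrays, with -0.67 ± 0.041 (limma adjusted p = 1.2e-05) against untreated apoE-deficient hearts. Pdia6, a disulfide isomerase, had 581 and 640.4 on treated, 1105 and 1156 on untreated apoE-deficient and 991 and 955 on B6 arrays, with -0.88 ± 0.071 (limma adjusted p = 6.28e-05). Creld2, induced by the same stress, had 243 and 237 on treated, 461 and 433 on untreated apoE-deficient and 261 and 291 on B6 arrays and stood just outside the rule. The first 3 thus differed in where B6 hearts lay: for Hspa5 and Pdia6 near the untreated apoE-deficient pair, for Manf between both apoE-deficient groups.

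Fkbp5 and Zbtb16 are also known glucocorticoid targets. Of the 18 other tested genes of a glucocorticoid list 12 fell and 3 rose in treated against untreated apoE-deficient hearts, 5 rose and 3 fell in untreated apoE-deficient against B6 hearts, and 4 rose and 9 fell in treated against B6 hearts. Over all genes 11.4% rose and 12.3% fell in the first comparison, 3.85% and 4.66% in the second, and 8.78% and 9.87% in the third. Errfi1, a feedback inhibitor of EGF receptor kinases, had 302 and 298 on treated, 608 and 604 on untreated apoE-deficient and 540.4 and 616 on B6 arrays and fell in treated hearts, at -0.99 ± 0.089 (limma adjusted p = 0.000112). Pdk4, the kinase that shuts off pyruvate dehydrogenase, had 1878 and 1979 on treated, 2871 and 2884 on untreated apoE-deficient and 5933 and 5997 on B6 arrays. It was lower in treated than in untreated apoE-deficient hearts, at -0.58 ± 0.043 (limma adjusted p = 4.09e-05), and lower in untreated apoE-deficient than in B6 hearts, at -1.05 ± 0.043 (limma adjusted p = 4.3e-06). Dusp1, a MAP kinase phosphatase, had 3099 and 3229.7 on treated, 2049.7 and 1957 on untreated apoE-deficient and 3009 and 3020.3 on B6 arrays, the reverse of the members, with 0.66 ± 0.046 (limma adjusted p = 2.9e-05) and -0.59 ± 0.046 (limma adjusted p = 0.000269). Sgk1, a kinase that acts on ion channels, had 2000.4 and 1934 on treated, 1228 and 1262 on untreated apoE-deficient and 1290.0 and 1230.2 on B6 arrays and rose in treated hearts, at 0.66 ± 0.055 (limma adjusted p = 7.44e-05). The list thus held genes of several orders.

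Transcription factors and proteins acting on DNA or chromatin gave 13 probe sets of 11 genes. Fen1, a flap endonuclease of DNA replication and repair, had 369 and 668 on treated, 2509 and 2929 on untreated apoE-deficient and 622 and 522 on B6 arrays, the highest ratio outside the chaperones (3.76). Its other probe set (1421731_a_at) had 118 and 114 on treated, 97.5 and 117 on untreated apoE-deficient and 131 and 105 on B6 arrays, where the groups overlapped, so the Fen1 pattern rests on 1 probe set. Its name ends in _x_at, which in the naming of these arrays marks probes that may match other transcripts, as do member probe sets of Hspa1b, Hspb1, Klhdc4, Shld1 and Tbca. Nr4a3, an orphan nuclear receptor of the immediate early class, had 74.3 and 63.8 on treated, 252 and 273 on untreated apoE-deficient and 28.4 and 58.3 on B6 arrays and a treated minus B6 difference of 0.61 ± 0.27 (limma adjusted p = 0.178). The other Nr4a3 probe sets were dim and did not keep the order. Their mean signals were 50.1 for 1421080_at (ratio 0.49) and 6.33 for 1421079_at (ratio 0.168). Atf3, a stress-induced transcription factor, had 91.2 and 119 on treated, 351 and 258 on untreated apoE-deficient and 116 and 114 on B6 arrays, with the untreated apoE-deficient arrays well apart from each other. Ier5, an immediate early gene known as a regulator of HSF1, had 446 and 454 on treated, 725 and 771 on untreated apoE-deficient and 472 and 453 on B6 arrays. A second Ier5 probe set had 72.7 and 57.9 on treated, 191 and 151 on untreated apoE-deficient and 92.1 and 112 on B6 arrays, the same order with a ratio of 1.35. In all 4 the treated and B6 arrays were not called apart.

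Arid5a, an RNA-binding protein that stabilises inflammatory transcripts, had 114 and 119 on treated, 246 and 267 on untreated apoE-deficient and 112 and 110.3 on B6 arrays. Zbtb16, the zinc finger repressor PLZF, had 302 and 344 on treated, 824 and 721 on untreated apoE-deficient and 479 and 388 on B6 arrays, with treated arrays below B6, at -0.41 ± 0.12 (limma adjusted p = 0.0525). Its 2 further bright probe sets kept the order, with ratios of 1.3 and 1.24. Meox1, a homeobox factor, had 283 and 295 on treated, 509.6 and 502 on untreated apoE-deficient and 278 and 305 on B6 arrays, with treated and B6 arrays interleaved. Mbd1, which binds methylated CpG sites, had 334 and 350.2 on treated, 678 and 646 on untreated apoE-deficient and 403 and 385 on B6 arrays, and its other bright probe set (ratio 0.998) did not separate the groups. Of 3 dim Mbd1 probe sets 1453678_at had a ratio of 1.88 at a mean signal under 100. Shld1, a subunit of the shieldin complex of double-strand break repair, had 429.7 and 459 on treated, 883 and 961 on untreated apoE-deficient and 555 and 526 on B6 arrays on 1437617_x_at and 517 and 539.9 on treated, 944 and 1029 on untreated apoE-deficient and 536 and 579 on B6 arrays on 1452888_at. The first was lower in treated than in B6 hearts, at -0.28 ± 0.08 (limma adjusted p = 0.049), a call that held in 2 of 16 alternative settings and was lost with any 1 array left out (limma adjusted p from 0.0574 to 0.249), and the second was not called, at -0.075 ± 0.079 (limma adjusted p = 0.626). Resf1, a factor of retroelement silencing, had 502 and 486 on treated, 812 and 913 on untreated apoE-deficient and 506 and 503 on B6 arrays on 1437110_at and 292 and 300.0 on treated, 493 and 539 on untreated apoE-deficient and 328 and 322 on B6 arrays on 1429588_at. Fbll1, a relative of the nucleolar methyltransferase fibrillarin, had 89.2 and 94.1 on treated, 162 and 154 on untreated apoE-deficient and 89.1 and 100.4 on B6 arrays. Of the 13 probe sets 1 was called, lower in treated hearts, and 11 of 13 treated minus B6 differences were negative (median -0.074). Over all tested probe sets 7.58% were called lower, and the median was -0.023.

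The other genes of an immediate early list were read in the same way. Of 23 tested genes 7 rose and 3 fell in treated against untreated apoE-deficient hearts, 1 rose and 2 fell in untreated apoE-deficient against B6 hearts, and 7 rose and 2 fell in treated against B6 hearts. The shares of all genes were 11.4% higher and 12.3% lower, 3.85% and 4.66%, and 8.78% and 9.87% in that order of comparisons. Fos, a subunit of the AP-1 transcription factor, had 532 and 510.2 on treated, 86.6 and 109.6 on untreated apoE-deficient and 232 and 209 on B6 arrays, with 2.29 ± 0.14 (limma adjusted p = 1.1e-05) for treated minus untreated apoE-deficient and -1.09 ± 0.14 (limma adjusted p = 0.00257) for untreated apoE-deficient minus B6. Egr1, a zinc finger factor induced within minutes, had 1273 and 1243 on treated, 322 and 320.0 on untreated apoE-deficient and 1005 and 1012 on B6 arrays, with 1.93 ± 0.064 (limma adjusted p = 3.54e-07) and -1.62 ± 0.064 (limma adjusted p = 3.74e-06). In both genes the untreated apoE-deficient arrays were the lowest pair. Klf2, a transcription factor of endothelium responsive to flow, had 981 and 982 on treated, 1675 and 1666 on untreated apoE-deficient and 1641 and 1636 on B6 arrays and fell in treated hearts, at -0.76 ± 0.051 (limma adjusted p = 2.05e-05), and Ccn2, a matricellular growth factor, had 2376 and 2372 on treated, 1677 and 1648 on untreated apoE-deficient and 1669.6 and 1697 on B6 arrays and rose, at 0.51 ± 0.047 (limma adjusted p = 0.000127). Nr4a1, the closest relative of Nr4a3 on the list and shown for that reason, had 767 and 806 on treated, 518 and 671 on untreated apoE-deficient and 497 and 477 on B6 arrays and was highest in treated hearts, at 0.41 ± 0.11 (limma adjusted p = 0.0333) over untreated apoE-deficient hearts.

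**Figure D5:**
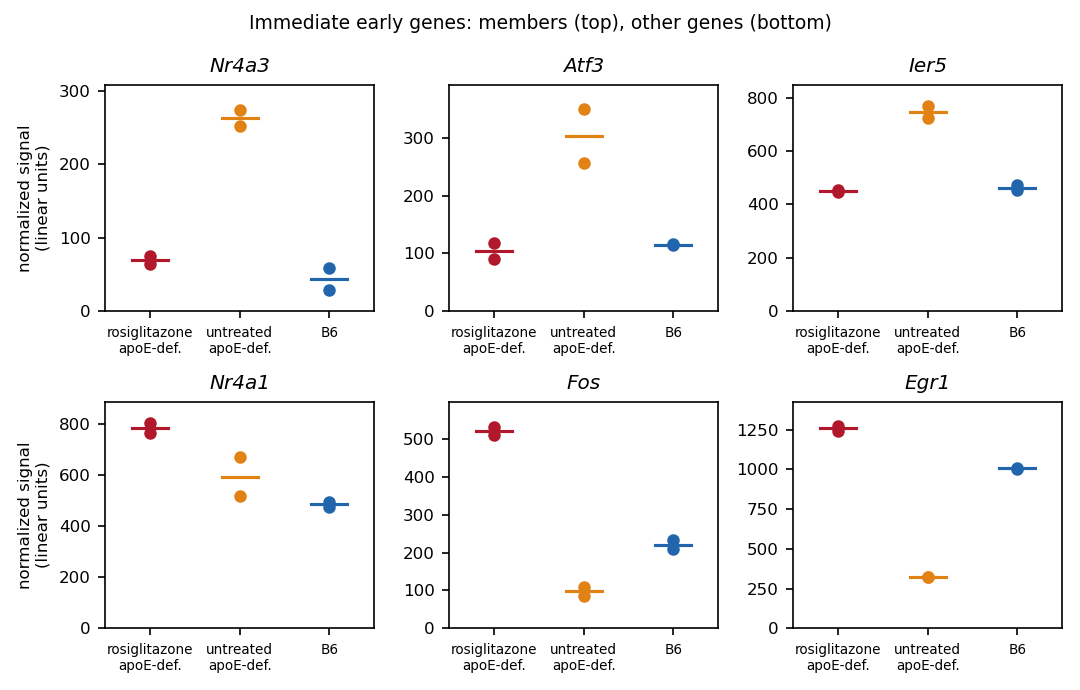
Normalized signal (linear units) of 6 immediate early genes in treated, untreated apoE-deficient and B6 hearts. Points are arrays and lines group means. Nr4a3, Atf3 and Ier5 (top), members, peak in untreated apoE-deficient hearts. Nr4a1, Fos and Egr1 (bottom), not members, are highest in treated hearts, and Fos and Egr1 are lowest in untreated apoE-deficient hearts.

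Of 6 genes of muscle growth and receptor signalling, 3 were higher in treated than in B6 hearts and 1 was lower. Among all tested probe sets these shares were 7.46% and 7.58%. Tnfrsf12a, the receptor Fn14 for the cytokine TWEAK, had 944 and 1018 on treated, 1691 and 1534 on untreated apoE-deficient and 678 and 729 on B6 arrays. Treated hearts lay between the other groups, with a treated minus B6 difference of 0.47 ± 0.074 (limma adjusted p = 0.00281) and a treated minus untreated apoE-deficient difference of -0.71. Its other probe set had 1182 and 1135 on treated, 1720.3 and 1543 on untreated apoE-deficient and 923 and 719 on B6 arrays, the same order, and was likewise higher in treated than in B6 hearts, at 0.50 ± 0.11 (limma adjusted p = 0.0134). Abra, an actin-binding protein of striated muscle, had 307 and 341 on treated, 542 and 555 on untreated apoE-deficient and 247 and 235 on B6 arrays, with treated over B6 hearts, at 0.41 ± 0.096 (limma adjusted p = 0.0198). Rcan1, an inhibitor of the phosphatase calcineurin and known as a readout of its activity in heart, had 339 and 347 on treated, 548 and 561 on untreated apoE-deficient and 272 and 274 on B6 arrays, with treated over B6 hearts, at 0.32 ± 0.086 (limma adjusted p = 0.0369). A second Rcan1 probe set (1416600_a_at) had 1018 and 1184 on treated, 1133 and 1151 on untreated apoE-deficient and 839.7 and 799 on B6 arrays: there treated and untreated apoE-deficient arrays overlapped, and both lay above B6. For these 3 genes no array of 1 group overlapped with another group on the member probe set.

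Gnb3, a G protein beta subunit, had 107 and 102 on treated, 179 and 181 on untreated apoE-deficient and 77.9 and 54.9 on B6 arrays, with a treated minus B6 difference of 0.59 ± 0.19 (limma adjusted p = 0.0734) that did not pass. Cacng7, a gamma subunit of voltage-gated calcium channels, had 75.0 and 104 on treated, 311 and 408 on untreated apoE-deficient and 202 and 205 on B6 arrays, and treated hearts were lower than B6, at -1.11 ± 0.18 (limma adjusted p = 0.00343), the largest called difference of the 54. That call held in 14 of 16 alternative settings and was lost without scaling and without the intensity trend. The other Cacng7 probe set was dim, with a mean signal under 100. Pgf, the placental growth factor that acts on the receptor Flt1, had 60.2 and 90.0 on treated, 157 and 149 on untreated apoE-deficient and 94.3 and 89.2 on B6 arrays and was not called. Of the 6 probe sets 3 were higher and 1 lower in treated than in B6 hearts (median 0.37), against 7.46% and 7.58% of all tested probe sets. Tnfrsf12a was kept in 15 of 16 alternative settings, Abra in 12 and Rcan1 in 10. Abra lost its call without the second treated or either B6 array, with limma adjusted p from 0.0564 to 0.138. Rcan1 lost it without either treated, the second untreated apoE-deficient or either B6 array, with limma adjusted p from 0.0502 to 0.166.

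Macrophage and leukocyte genes made up 5 members. Adgre1 encodes F4/80, a surface marker of mouse macrophages, and had 401 and 391 on treated, 604 and 614 on untreated apoE-deficient and 303 and 313 on B6 arrays. It was higher in treated than in B6 hearts, at 0.35 ± 0.082 (limma adjusted p = 0.0203). Fcrls, an Fc receptor-like gene of resident macrophages in mice, had 189.6 and 216 on treated, 364 and 326 on untreated apoE-deficient and 186 and 178 on B6 arrays. Slfn2, a schlafen protein of T cells and monocytes, had 122 and 113 on treated, 233 and 248 on untreated apoE-deficient and 115 and 149 on B6 arrays. Rac2, a small GTPase of blood cells, had 129.7 and 109 on treated, 209.7 and 201 on untreated apoE-deficient and 63.5 and 127 on B6 arrays, with the B6 arrays far apart. Cybc1, which helps to fold the NADPH oxidase of phagocytes, had 168 and 159 on treated, 336 and 331 on untreated apoE-deficient and 177 and 187 on B6 arrays. Adgre1 was the only call of the 5 between treated and B6 hearts, and it held in 11 of 16 alternative settings. It was lost without either treated or either B6 array, with limma adjusted p from 0.0676 to 0.128.

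Other macrophage markers were read from a list chosen, as all lists were, with earlier results of these data known. Of 14 tested macrophage genes besides Adgre1, 4 rose and 1 fell in treated against untreated apoE-deficient hearts, 5 rose and 1 fell in untreated apoE-deficient against B6 hearts, and 8 rose and 0 fell in treated against B6 hearts. Shares over all genes were 11.4% higher and 12.3% lower, 3.85% and 4.66%, and 8.78% and 9.87% in the same order. The 15 genes with Adgre1 summed to 15059 to 15070 on treated, 14293 to 14391 on untreated apoE-deficient and 10616 to 10810 on B6 arrays. C1qb, a complement subunit made by macrophages and the 1 marker that fell in treated hearts, had 1714 and 1790.0 on treated, 1959.5 and 1983 on untreated apoE-deficient and 1145 and 1122 on B6 arrays, with -0.17 ± 0.052 (limma adjusted p = 0.0486) and 0.79 ± 0.052 (limma adjusted p = 8.46e-05). Lgals3, galectin 3, had 755 and 761 on treated, 195 and 218 on untreated apoE-deficient and 160.3 and 140.0 on B6 arrays and rose in treated hearts, at 1.82 ± 0.11 (limma adjusted p = 1.31e-05). Gpnmb, a marker of lipid-laden macrophages, had 292 and 332 on treated, 49.5 and 63.5 on untreated apoE-deficient and 56.9 and 51.9 on B6 arrays and rose, at 2.26 ± 0.19 (limma adjusted p = 7.5e-05). Of 8 tested T and B lymphocyte markers 3 rose and 1 fell in treated against untreated apoE-deficient hearts (median 1.41). The 12 such genes on the arrays summed to 1807 to 2147 on treated, 412 to 493 on untreated apoE-deficient and 417 to 493 on B6 arrays. Of 6 neutrophil markers 1 rose and 0 fell. The airway and fat markers given above were higher in treated hearts, while 9 of the 14 macrophage markers were not called between treated and untreated apoE-deficient hearts. Their part in the values of the 5 genes was not tested.

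The last 7 genes are enzymes, carriers and others. P4ha1, the catalytic subunit of collagen prolyl 4-hydroxylase, had 382 and 354 on treated, 819.5 and 787 on untreated apoE-deficient and 419 and 379 on B6 arrays on 1452094_at and 212 and 208 on treated, 451 and 428 on untreated apoE-deficient and 244 and 193 on B6 arrays on 1426519_at. Alpl, tissue-nonspecific alkaline phosphatase, had 284 and 254 on treated, 602 and 577 on untreated apoE-deficient and 329 and 342 on B6 arrays, with treated under B6 arrays, at -0.31 ± 0.094 (limma adjusted p = 0.0608). Sars2, the mitochondrial seryl-tRNA synthetase, had 333 and 247 on treated, 626 and 635 on untreated apoE-deficient and 308 and 373 on B6 arrays. Gnmt, which methylates glycine, had 91.1 and 55.8 on treated, 144 and 162 on untreated apoE-deficient and 84.6 and 64.6 on B6 arrays, and the water channel Aqp8 had 126 and 102 on treated, 192 and 216 on untreated apoE-deficient and 70.4 and 93.0 on B6 arrays. Tom1l2, an adaptor of endosomal traffic, had 95.1 and 95.2 on treated, 148 and 160.2 on untreated apoE-deficient and 98.0 and 87.9 on B6 arrays, while its brighter probe set, with 1146 and 1165 on treated, 1359 and 1348 on untreated apoE-deficient and 1479 and 1602 on B6 arrays, put B6 arrays highest. None of these 8 probe sets was called between treated and B6 hearts.

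Tbca, a tubulin folding cofactor, had 64.8 and 370.1 on treated, 671 and 580.0 on untreated apoE-deficient and 345 and 347 on B6 arrays, and the treated arrays differed by more than those of any other of the 54 probe sets (log2 SD 1.65). Its treated minus B6 difference of -1.07 ± 0.56 was not called. The other 3 bright Tbca probe sets had ratios of 0.58 to 0.97 and did not show the order. P4ha1 is a known target of hypoxia signalling. Among 16 other tested hypoxia genes 3 rose and 1 fell in treated against untreated apoE-deficient hearts, 1 rose and 0 fell in untreated apoE-deficient against B6 hearts, and 3 rose and 2 fell in treated against B6 hearts. Of all genes 11.4% rose and 12.3% fell in the first of these comparisons, 3.85% and 4.66% in the second and 8.78% and 9.87% in the third. Pfkfb3, which drives glycolysis, had 230.3 and 203 on treated, 92.8 and 77.9 on untreated apoE-deficient and 61.1 and 45.9 on B6 arrays and rose in treated hearts, at 1.24 ± 0.20 (limma adjusted p = 0.00254), and Ndrg1 had 857 and 1002 on treated, 668 and 637 on untreated apoE-deficient and 578 and 672 on B6 arrays and rose, at 0.50 ± 0.099 (limma adjusted p = 0.00739). Pdk1, a pyruvate dehydrogenase kinase, had 1234 and 1316 on treated, 1587 and 1611 on untreated apoE-deficient and 1455 and 1564 on B6 arrays and fell, at -0.32 ± 0.06 (limma adjusted p = 0.00523).

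The order was not always shared by the other probe sets of the same gene. Of the 46 genes 7 had more than 1 member probe set, 17 had 1 probe set in all, and 24 had other probe sets, 44 in number. Of these 44, 17 had a mean signal under 100. Of the 27 brighter ones the lower untreated apoE-deficient array was above all 4 other arrays in 13, above both treated arrays in 19 and above both B6 arrays in 15. Dnajb5, Fen1, Ivns1abp, Mbd1, Ppp1r13l, Rcan1, Siah2, Tbca and Tom1l2 each had a bright probe set without it. For Dnaja1, Dnajb4, Fkbp5, Hsp90aa1, Hspb1, Ier5, Klhdc4, Resf1, Tnfrsf12a and Zbtb16 every other bright probe set kept it. Which transcripts the probe sets of a gene read was not examined.

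Membership depended on the threshold and on scaling. Just inside the rule were Zbtb16 with a ratio of 1.505, Adgre1 with 1.505 and Map3k6 with 1.501. Just outside were Socs3, an inhibitor of cytokine receptors, with 1.494, the Notch ligand Jag2 with 1.493, and Creld2 with 1.489. With array medians, trimmed means or spike-ins in place of quantile normalization, untreated apoE-deficient arrays stayed above the other 4 arrays in all 54 probe sets, but the ratio of 1.5 was met by 31, 39 and 34 of them in that order of scalings. The 54 were chosen for that order on the same signals, so its staying is little test of it. With no scaling 10 of the 54 kept the order and 5 met the ratio. The opposite rule, with untreated apoE-deficient arrays below all others by the same ratio, gave 67 probe sets of 62 genes.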

How the data were processed

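Heart RNA was made into biotinylated cRNA and read on Affymetrix arrays, per the labels' protocols. The deposited table holds 1 linear signal intensity per probe set and array, made by the authors with GCOS, per the submitters' processing notes. No source used here gives the version of GCOS, its background correction or any scaling. The intensities were not on a common scale, so signals of 45037 probe sets were quantile-normalized, a pseudocount of 11.1 (the 25th percentile) was added and log2 taken. Probe sets with a mean above the 40th percentile (4.99), 27022 in all, entered 1 fit of the 3 groups with limma (version 3.58.1, R 4.3.3), with eBayes and a trend of variance on intensity, at 3 residual and 5.97 prior degrees of freedom, with Benjamini-Hochberg adjustment over all of them and a threshold of 0.05. For gene lists, 18 of pathways and 14 of cell type markers, the brightest probe set stood for a gene, which gave 13236 genes. Array annotation, which can be old, gave 1 symbol to 34945 probe sets, several to 932 and none to 9160, and 34741 were updated to GRCm38.p6 symbols. The members, lists and tests were chosen with earlier results of these data known.

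By the naming rule, 34 members were named for being among the 24 genes of the largest ratio, on a list, among the called differences or at the threshold. The other 12 were added after their values were seen, so that every member is accounted for. List genes that are no members were named by the 4 smallest p in treated against untreated apoE-deficient hearts, with others said to be picked. Replicate numbers are shared between groups, but same-numbered arrays deviated together with r of only -0.0063 to 0.033, so they were not taken as pairs. Having 2 arrays a group limits the precision. The tests were tried on simulated data. Alternatives were 4 other scalings, 2 pseudocounts, 2 filters, no trend, a replicate block and leaving out each array.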

Additional observations from a re-analysis of the deposited data

How the results depend on the processing

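The rule found 54 probe sets, and 34 with array medians centred, 5 with no scaling, 13 with a ratio of 2, and 58 to 110 when 1 array was left out, which loosens it (109 and 110 without an untreated apoE-deficient, 87 and 91 without a B6 array). Of the 54, 4 were higher and 9 lower in treated than in B6 hearts. Higher calls numbered 19 with spike-in scaling, 45 with no scaling, 0 without the intensity trend and 2 to 4 with 1 array left out. Lower calls numbered 2, 0, 0 and 5 to 9 in the same settings. The median difference was 0.25 with spike-in scaling and 0.82 with no scaling, while the median over all probe sets moved to 0.28 and 0.81. With no scaling 8 called differences changed sign, to 0.43 for Hspa1b, 0.64 for Hsph1, 0.42 and 0.35 for Dnaja1, 0.55 for Dnajb1, 0.47 for Hspb1, 0.64 for Shld1 and 0.12 for Sdf2l1. With spike-in scaling Hsph1 moved to 0.071 and Shld1 to 0.072. Calls over all probe sets were higher in 49.6% here, 92.5% with spike-ins, 99.7% with no scaling and 70.3% without the trend, and member calls in 30.8%, 90.5% and 100% (none without the trend). Of the 19 other heat shock genes, 12 fell in treated against untreated apoE-deficient hearts, and 0 with no scaling, 4 without the trend and 10 to 12 with 1 array left out. In untreated apoE-deficient against B6 hearts 11 rose, and 0 with no scaling, 0 without the trend and 5 to 10 with 1 array left out. The cause of these moves was not tested. With the replicate number as a replicate block 4 members were higher and 9 lower, with Shld1 no longer called (limma adjusted p = 0.0541) and Zbtb16 called lower (limma adjusted p = 0.0484). That block moved no count of calls by over 1.5 times. Leaving 1 array in a group assumes that it varies like the others. With a pseudocount of 50 all 54 members kept their side of the threshold and their direction, and with a pseudocount of 1 all but 1 did.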

Other observations

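Probe sets without a gene symbol, which the rule leaves out, met its numbers in 4 cases. The brightest contrast was 1419146_a_at, with signals of 129 and 129 on treated, 453 and 448 on untreated apoE-deficient and 93.0 and 87.0 on B6 arrays, and it was higher in treated than in B6 hearts, at 0.47 ± 0.13 (limma adjusted p = 0.0354). A second, 1425303_at, had 182 and 208 on treated, 366 and 352 on untreated apoE-deficient and 128 and 131 on B6 arrays and was also higher in treated hearts, at 0.55 ± 0.12 (limma adjusted p = 0.0165). The remaining 1442025_a_at and 1442026_at had ratios of 2.06 and 1.95 and were not called. The annotation used here names none of them.

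Lists with no member were read as well, and those given here are a selection. Other such lists, among them splicing factors and potassium channels, are not shown. Of all 13236 tested genes 11.4% rose and 12.3% fell in treated against untreated apoE-deficient hearts, 3.85% and 4.66% in untreated apoE-deficient against B6 hearts, and 8.78% and 9.87% in treated against B6 hearts. Of 17 circadian clock genes 0 rose and 5 fell in treated against untreated apoE-deficient hearts, 4 rose and 1 fell in untreated apoE-deficient against B6 hearts, and 0 rose and 1 fell in treated against B6 hearts. PPAR targets of lipid handling, 24 tested, rose in 5 and fell in 14 in treated against untreated apoE-deficient hearts, rose in 2 and fell in 8 in untreated apoE-deficient against B6 hearts, and rose in 6 and fell in 15 in treated against B6 hearts. Extracellular matrix genes, 26 tested, rose in 15 and fell in 3 in treated against untreated apoE-deficient hearts, rose in 1 and fell in 7 in untreated apoE-deficient against B6 hearts, and rose in 11 and fell in 4 in treated against B6 hearts. Interferon response genes, 24 tested, rose in 11 and fell in 0 in treated against untreated apoE-deficient hearts, rose in 5 and fell in 0 in untreated apoE-deficient against B6 hearts, and rose in 14 and fell in 2 in treated against B6 hearts. Any 2 of these comparisons share the arrays of 1 group.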
